A study of Mus musculus with 16 samples.

Results

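The nuclei described here are oligodendrocyte precursors (OPCs) of the mouse dentate gyrus (DG), chosen by their own RNA. A nucleus was counted as an OPC when it held at least 3 unique molecular identifiers (UMIs, each standing for a captured RNA molecule) summed over 7 marker genes, *Pdgfra*, *Vcan*, *Lhfpl3*, *Cspg4*, *Sema3d*, *Cacng4* and *C1ql1*, with at least 1 of them from *Pdgfra*, *Vcan* or *Cspg4*. At most 1 UMI was allowed over 5 genes of other cell types, *Gad2* of GABAergic neurons, *Mog* of oligodendrocytes, *Gja1* of astrocytes, *Inpp5d* of microglia and *Prox1* of granule cells (GCs). This gave 365 OPCs among 17015 nuclei, or 2.15%. The nuclei came from 8 mice, and RNA and accessible chromatin (ATAC) were read from the same nuclei of each mouse. WT mice (genotype VV) carried the unmutated *Nrg1* gene, and V321L mice (genotype LL) were homozygous for a valine-to-leucine substitution in the transmembrane domain of the protein it encodes, with 2 females and 2 males of each genotype. The mutation is carried in the germline and so is present in every cell type and not only in OPCs, and the age of these mice is not given in the labels. The DG was microdissected, frozen and taken apart into nuclei, so that much of the cytoplasmic RNA was lost, and RNA released from other cells could enter a droplet as free RNA.

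OPCs are glial progenitors that tile the adult brain, divide slowly and give rise to myelinating oligodendrocytes. PDGF acting on the receptor encoded by *Pdgfra* keeps them dividing, the transcription factors OLIG1, OLIG2 and SOX10 set their identity, and cells that commit to differentiation switch on *Gpr17*, *Bmp4*, *Neu4*, *Enpp6* and *Bcas1* before the myelin genes. OPCs receive synapses from neurons and express glutamate and GABA receptors. Neuregulins such as NRG1 and NRG3 are ligands of ErbB receptors, and neuregulins on axons are known to act on the oligodendrocyte lineage.

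Values per mouse are given below in the order F1, F2, M1 and M2. The WT mice gave 30, 57, 18 and 49 OPCs and the V321L mice 71, 59, 39 and 42. The median number of UMIs in an OPC was 1287, 1408, 817 and 1484 in the WT mice and 1832, 2338, 2166 and 1728 in the V321L mice, so that the deepest WT mouse lay under the shallowest V321L mouse. Summed over its OPCs a mouse had between 20521 UMIs (WT M1) and 160646 UMIs (V321L F2). The median mitochondrial share of the UMIs of an OPC lay between 0.0750% and 0.176% in the WT mice, against 0.626% to 1.45% for the V321L mice. Depth and mitochondrial share separated the genotypes completely, so that their part in the differences below cannot be told apart from that of the mutation. The median ATAC count of an OPC was 3600, 1483, 3931 and 3035 in WT and 1614, 4956, 12158 and 1486 in V321L mice, and here the genotypes overlapped. *Xist* and 4 Y-linked genes matched the labelled sex in 8 of 8 libraries. The libraries shared 0 cell barcodes among their OPCs, and 41 of the 365 OPCs had a high doublet score, against 774 of all 17015 nuclei. By mouse they numbered 5, 16, 2 and 4 in WT and 9, 3, 1 and 1 in V321L mice, with the most in WT F2. Results without these nuclei are given below as an alternative setting.

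The marker genes decided the choice, so their values are a description only. *Lhfpl3* had a UMI in 90.4% of the OPCs, *Vcan*, a matrix proteoglycan, in 90.1%, *Pdgfra* in 57.3%, *Sema3d* in 44.9%, *Cacng4* in 44.1%, *Cspg4*, the NG2 proteoglycan, in 41.6% and *C1ql1* in 30.4%. The median OPC held 14 marker UMIs and 80% of OPCs had UMIs of at least 3 of the 7 genes, while 24 OPCs had UMIs of a single marker gene. In CPM, the UMIs of a gene scaled to a common total over the OPCs of a mouse, *Pdgfra* was at 470.4, 358, 487 and 488 CPM in WT and 470.3, 566, 714 and 492 CPM in V321L mice. The genotypes overlapped for *Pdgfra*, *Vcan*, *Lhfpl3* and *Sema3d*. They did not overlap for *Cacng4*, at 126 ± 88.2 and 658 ± 133 CPM in WT and V321L mice, for *C1ql1*, at 48.4 ± 37.4 and 318 ± 41.2 CPM, or for *Cspg4*, at 169 ± 104 and 483 ± 121 CPM (mean ± SD, n = 4 mice each). The 7 markers therefore did not contribute alike to the choice in both genotypes.

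The choice has a threshold, and the nuclei at its edge are given as a description. There were 22 OPCs with exactly 3 marker UMIs and 48 nuclei just outside with 2. UMIs of *Olig1*, *Olig2* or *Sox10*, genes that the choice did not use, were found in 0 of the 22, pooled over mice, which by counting error alone allows a share of up to 13.6% of nuclei with such a UMI, and in 2.08% of the 48, against 48.2% of all OPCs. A further 89 nuclei reached the marker threshold but held too many UMIs of the 5 excluded genes. Among the OPCs, 33 held at least 3 UMIs of oligodendrocyte markers and 10 were scored as cycling.

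The name of the class was checked against *Olig1*, *Olig2* and *Sox10*. In V321L mice 66.2%, 72.9%, 82.1% and 78.6% of OPCs had a UMI of at least 1 of these genes, but in WT mice only 6.67%, 12.3%, 11.1% and 20.4% did. In nuclei without any marker UMI that were not oligodendrocytes, the share lay between 0.248% and 0.473% in the WT mice, against 1.57% to 2.49% for the V321L mice. Every OPC share was above this background, and every WT share was far under every V321L share. Most WT nuclei of the class thus hold no UMI of these transcription factors at this depth.

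RNA levels of genes outside the rule were compared between OPCs and the other nuclei of the same mice. The fit called 1137 (9.77%) of 11642 genes higher and 2019 (17.3%) lower in OPCs, but the nuclei were chosen by their RNA, so that these calls are no test and nothing is read from them. What follows describes values, beside a median log2 difference of -0.23 over all genes, of which 35.9% had a positive one. The largest excess, among genes with at least 100 CPM in OPCs and a higher level in 8 of 8 mice, was that of *Neu4*, a sialidase of the lineage (log2 difference 8.33), *Gpr17*, a receptor of committed precursors (7.33), *Ntn1*, the guidance cue netrin 1 (6.20), *Stk32a* (6.01), the transcription factor gene *Etv4* (5.55), *Emid1* (5.48), *Gm4876* (5.36), *Tmem100* (5.35), *Gm33680* (5.34) and *Abtb2* (5.33). Of these, *Neu4*, *Gpr17* and *Etv4* averaged under 100 CPM in OPCs of the WT mice and reached this level through the V321L mice. Of the 15 lineage transcription factors with enough counts 10 had a positive difference (median 2.47), with *Sox6* at 5.12 and *Sox5* at 3.48. Of 25 surface and matrix genes 24 did (median 2.79), with *Mmp15* at 5.75 and *Matn4* at 5.13. Of 27 glutamate and GABA receptor genes 10 did (median -0.85), among them the NMDA receptor subunit gene *Grin3a* at 3.22 and the GABA-A receptor subunit gene *Gabra3* at 2.85. Of 20 granule cell genes 1 did (median -1.92).

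Accessible chromatin was not used by the rule apart from a minimum of 500 ATAC counts, so it gives a view of the same nuclei that can be tested. Counts in peaks that overlap the 1 kb on either side of a transcription start site (TSS) were summed as the promoter of a gene. Of 13031 promoters of genes outside the rule, 276 (2.12%) were more accessible and 639 (4.9%) less accessible in OPCs than in the other nuclei of the same mice, at an adjusted p under 0.05. The number of promoters that differ in accessibility between OPCs and other nuclei, 915 in all, came to 577 without V321L M1. The promoters with the largest excess were those of *Luzp2* (log2 difference 2.90, standard error 0.365, adjusted p = 3.5e-09), *Gm48021* (2.87), *Pde3a*, a phosphodiesterase gene that shares its peak with *Gm28523* (2.77 for both), and *Cmtm5* (2.74, adjusted p = 4.23e-07). The *Pde3a* peak was higher in 7 of 8 mice, with 0 counts in WT F2 and 1 in WT M1 OPCs, and its call was lost in WT mice alone (adjusted p = 0.394). Scaled to CPM of the ATAC counts, the *Luzp2* promoter lay between 28.5 and 172 in the OPCs of the 8 mice and between 8.31 and 23.0 in the other nuclei, and the *Cmtm5* promoter between 28.5 and 168 in OPCs and between 6.37 and 21.3 in the other nuclei. Both were higher in 8 of 8 mice with no overlap between the classes. These levels rest on few counts, between 3 and 38 per mouse for the *Luzp2* promoter in OPCs.

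The promoter of *Olig1*, which specifies the lineage, was also more accessible in OPCs (log2 difference 2.36, standard error 0.424, adjusted p = 2.8e-05) and higher in 8 of 8 mice, at 80.1 ± 41.0 against 15.8 ± 9.47 CPM (mean ± SD, n = 8 mice). Those of *Pcdh15*, a protocadherin (1.39, adjusted p = 0.0156), *Dscam*, an adhesion molecule (1.09, adjusted p = 0.00389), and *Tnr*, the matrix protein tenascin-R (0.53, adjusted p = 0.0102), were higher as well, and that of *Lingo1* was less accessible (-1.16, adjusted p = 4.66e-07). Among the genes of the rule, the promoters of *Pdgfra* (0.93, adjusted p = 0.266) and *Lhfpl3* (0.26, adjusted p = 0.794) did not pass, and that of *Prox1*, which the rule excludes, was more accessible in OPCs (1.05, adjusted p = 0.0125). With peaks within 25 kb of the TSS counted instead, *Pdgfra* (1.94, adjusted p = 2.3e-06), *C1ql1* (1.93), *Nkx2-2* (2.44), *Bcas1* (3.12), *Matn4* (1.76) and *Sox10* (0.75, adjusted p = 0.0227) were more accessible in OPCs, while *Prox1* (0.55, adjusted p = 0.121) and *Lhfpl3* (0.32, adjusted p = 0.661) did not pass.

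The sequences upstream of 5 of these genes are shown because *Luzp2*, *Cmtm5*, *Pcdh15* and *Tnr* had promoters called more accessible in OPCs and *Pdgfra* names the lineage but was called only with the wider window. They are the 250 bases before the TSS in RefSeq on build GRCm38.p6 (mm10), written 5′ to 3′ on the strand of the gene. Capitals mark a pair of motifs searched on both strands, the letters CANNTG, the E-box core read by basic helix-loop-helix factors such as the OLIG proteins, and ACAAAG, or CTTTGT on the other strand, read by SOX factors. These motifs cannot overlap each other. Of the 32851 upstream windows of this length in the table, 66.2% hold CANNTG and 16.5% hold ACAAAG.
*Luzp2*, chr7:54834995-54835244, plus strand: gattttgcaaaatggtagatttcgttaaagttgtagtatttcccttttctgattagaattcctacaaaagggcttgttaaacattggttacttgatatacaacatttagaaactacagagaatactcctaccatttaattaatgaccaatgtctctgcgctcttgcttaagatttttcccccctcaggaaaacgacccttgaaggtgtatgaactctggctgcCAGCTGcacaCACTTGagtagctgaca
*Cmtm5*, chr14:54936220-54936469, plus strand: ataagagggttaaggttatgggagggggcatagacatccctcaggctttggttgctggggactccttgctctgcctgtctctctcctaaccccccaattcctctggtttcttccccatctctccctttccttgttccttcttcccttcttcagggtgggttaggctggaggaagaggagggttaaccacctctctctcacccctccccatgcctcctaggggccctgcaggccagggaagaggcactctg
*Pcdh15*, chr10:73821617-73821866, plus strand: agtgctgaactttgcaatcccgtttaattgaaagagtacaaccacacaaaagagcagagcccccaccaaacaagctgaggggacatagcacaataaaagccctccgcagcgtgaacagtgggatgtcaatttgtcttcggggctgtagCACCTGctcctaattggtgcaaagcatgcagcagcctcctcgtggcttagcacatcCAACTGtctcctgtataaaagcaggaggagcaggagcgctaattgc
*Tnr*, chr1:159523519-159523768, plus strand: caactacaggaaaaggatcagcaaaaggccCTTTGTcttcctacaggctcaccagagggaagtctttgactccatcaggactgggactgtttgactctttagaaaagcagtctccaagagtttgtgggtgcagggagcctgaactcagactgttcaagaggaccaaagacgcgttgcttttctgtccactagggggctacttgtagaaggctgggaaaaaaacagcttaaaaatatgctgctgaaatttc
*Pdgfra*, chr5:75152001-75152250, plus strand: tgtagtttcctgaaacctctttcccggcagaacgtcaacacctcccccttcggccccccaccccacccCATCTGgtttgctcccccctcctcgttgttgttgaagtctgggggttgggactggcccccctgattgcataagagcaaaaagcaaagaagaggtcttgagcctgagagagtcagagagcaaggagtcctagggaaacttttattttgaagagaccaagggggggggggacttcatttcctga
CANNTG is present 2 times upstream of *Luzp2*, 2 times upstream of *Pcdh15* and 1 time upstream of *Pdgfra*, and ACAAAG 1 time upstream of *Tnr*. The *Cmtm5* window shown holds neither, while that of a second RefSeq start of the gene, chr14:54936247-54936496 on the plus strand, holds CANNTG 1 time. A match describes the letters of a window and is not a binding site.

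RNA and promoters were both fitted for 9770 genes, and 35.1% of these had a positive RNA difference between OPCs and the other nuclei (median -0.22 on the log2 scale). Among the 192 with a promoter called more accessible 158 had a positive one (median 1.17), and among the 427 with a promoter called less accessible 46 had a positive one (median -1.12). The RNA of these nuclei chose them, so these counts are a description.

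**Figure D1:**
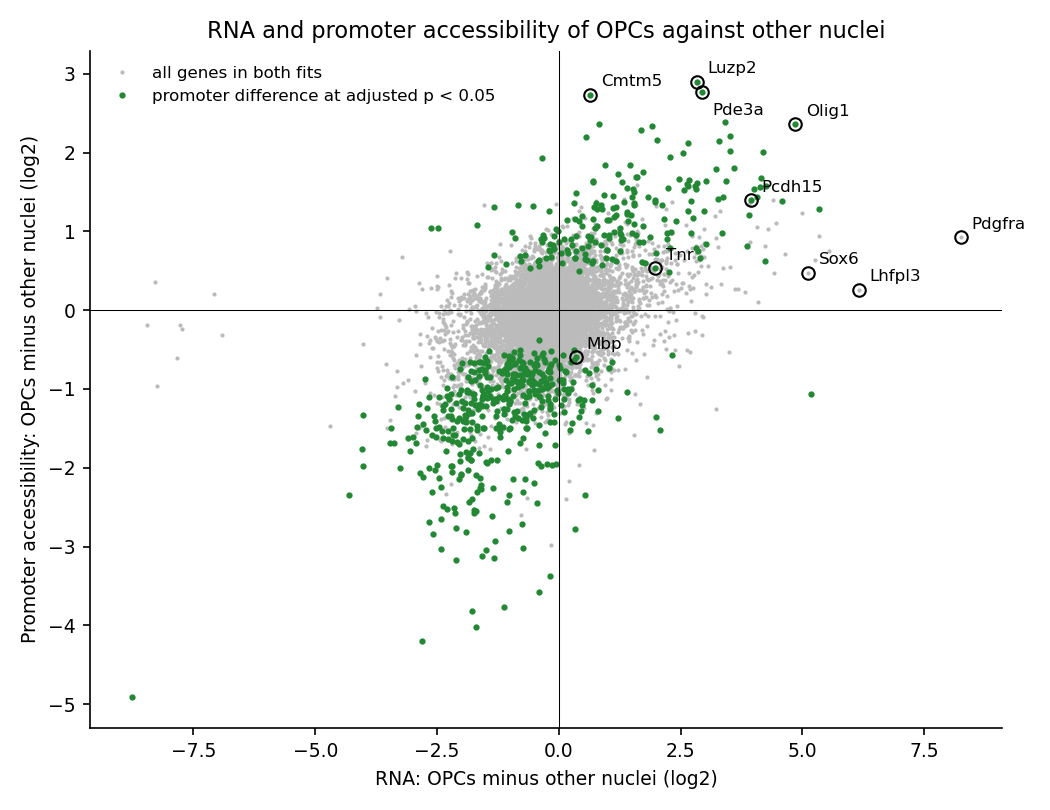
Each point is 1 gene, with its RNA difference between OPCs and the other nuclei on the x axis and its promoter accessibility difference on the y axis (both log2, from 8 mice), and green points have a promoter difference at an adjusted p under 0.05. *Luzp2* (2.90 on the y axis), *Cmtm5*, *Pde3a* and *Olig1* lie near the top, and *Pdgfra* and *Lhfpl3* lie far to the right with promoter differences under 1.

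The first comparison of the genotypes was the share of nuclei that were OPCs. It was 1.64%, 1.52%, 0.909% and 2.17% in WT and 3.44%, 2.92%, 2.57% and 2.64% in V321L mice. The lowest V321L share (M1) was above the highest WT share (M2). The mean was 1.56% ± 0.520 in WT and 2.90% ± 0.395 in V321L (SD, n = 4 mice each), a ratio of 1.86 (two-sided exact permutation test over mice, p = 0.0286, the smallest p that 4 against 4 mice can give). The direction held at equal depth and with another denominator, but the test did not pass at either setting. With 500 UMIs drawn from each nucleus at random and the rule applied to them, the shares were 0.981% ± 0.471 and 1.68% ± 0.235. The ratio was then 1.72 (exact permutation p = 0.0857). Among nuclei without UMIs of the granule cell markers the shares were 4.34% ± 1.48 and 6.51% ± 1.37, a ratio of 1.5 (exact permutation p = 0.171). Without V321L F1, F2 or M2 the exact permutation p was 0.0571, with ratios of 1.74, 1.85 and 1.91. Oligodendrocytes, chosen by their own markers, numbered 813 and were between 0.505% and 2.89% of nuclei in the WT mice, against 7.76% to 11.3% for the V321L mice. The rule counts *Cacng4*, *C1ql1* and *Cspg4*, which were higher in V321L OPCs, and drawing 500 UMIs does not remove this difference. Its part in the shares of OPCs was not tested. A share of captured nuclei is not a number of cells in the tissue.

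The second comparison was the share of OPCs with at least 2 UMIs over 6 genes of differentiating precursors, *Gpr17*, *Bmp4*, *Neu4*, *Enpp6*, *Bcas1* and *Itpr2*. It was 40%, 17.5%, 5.56% and 24.5% in WT and 54.9%, 71.2%, 71.8% and 57.1% in V321L mice. The groups did not overlap, with means of 21.9% ± 14.4 and 63.8% ± 8.97 (SD, n = 4 mice each), a ratio of 2.91 (two-sided exact permutation p = 0.0286). In the other nuclei without oligodendrocytes the share lay between 0.205% and 1.22% in the WT mice, against 1.79% to 3.52% for the V321L mice. The median depth of the other nuclei lay between 1128 and 1961 UMIs in the WT mice, against 2798 to 4220.5 UMIs for the V321L mice, above that of the OPCs in each of the 8 mice, so that the shares in OPCs stand above a background measured at greater depth. At 500 UMIs per nucleus the shares in OPCs were 4.09% ± 5.30 and 18.6% ± 4.07, a ratio of 4.55, again with no overlap (exact permutation p = 0.0286), on 14 to 39 OPCs per mouse. With OPCs chosen at full depth and then thinned to 500 UMIs, and 1 UMI asked for, a measure added after seeing the data, the shares were 25.8% ± 8.92 and 49.5% ± 3.23, a ratio of 1.92 (exact permutation p = 0.0286). Without V321L F2 or M1 the exact permutation p was 0.0571, with ratios of 2.80 and 2.79.

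**Figure D2:**
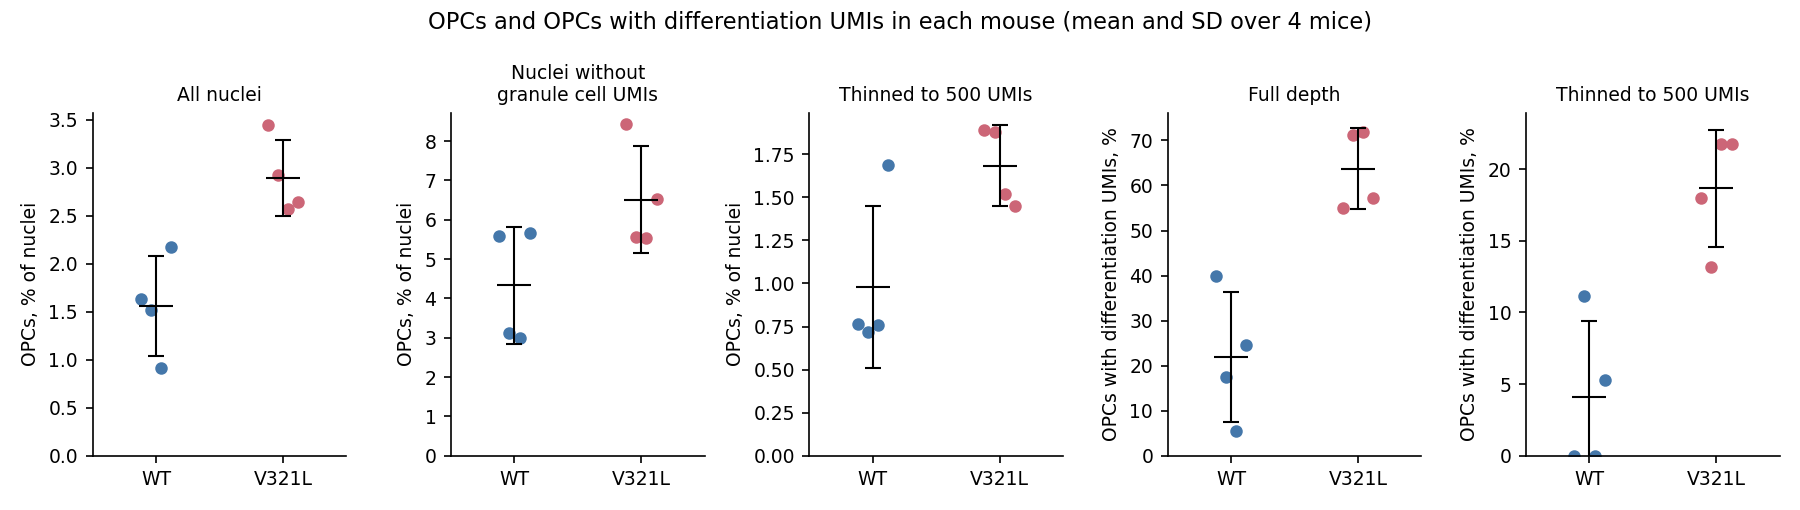
Each point is 1 mouse, and bars give the mean and SD over the 4 mice of a genotype. The panels give OPCs as percent of nuclei for all nuclei, for nuclei without granule cell UMIs and at 500 UMIs per nucleus, then the percent of OPCs with differentiation UMIs at full depth and at 500 UMIs. The V321L mice lie above all WT mice in the panel of all nuclei and in both differentiation panels, and the genotypes overlap in the other panels.

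Genes were then compared between the genotypes on UMIs summed over the OPCs of each mouse. Of 3687 genes outside the rule with enough counts, 613 (16.6%) were higher and 421 (11.4%) lower in V321L OPCs at an adjusted p under 0.05, with a median log2 difference of 0.04 over all genes tested. The counts for lists below stand beside these shares. With no filter on low counts 1168 genes were higher and 352 lower (median 0.56), and in DESeq2 523 and 248. In the other nuclei, where counts are far higher, 5752 (36.6%) of 15701 genes were higher and 4543 (28.9%) lower, and in oligodendrocytes 1241 (22.6%) of 5490 were higher and 813 (14.8%) lower. Of the genes tested in OPCs, 149 had at most 3 UMIs over all WT OPCs. Such a gene passed the filter on low counts through the V321L mice and had to differ, so the counts for lists below describe the members that could be tested and not all members. Genes with more UMIs in WT can have passed in the same way where most WT mice were low. In summed nuclei, fewer cells that express a gene and less of its RNA per cell cannot be told apart.

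The 3 neuregulin ligand genes that could be tested were lower in V321L OPCs. *Nrg1*, the gene that carries the mutation, was at 1339, 733, 1121 and 1007 CPM in WT and 641, 398, 747 and 378 CPM in V321L mice. The highest V321L mouse (M1) lay just above the lowest WT mouse (F2), and the difference passed the test (mean 1049.8 ± 252 against 541 ± 182 CPM, log2 difference -0.89, standard error 0.252, adjusted p = 0.00744). *Nrg3* had no overlap, at 3781, 5821, 3849.7 and 4577 CPM in WT and 2458, 2353, 2624 and 1842 CPM in V321L mice (log2 difference -0.95, adjusted p = 0.000515). *Nrg2* fell from 296 ± 139 to 127 ± 16.7 CPM (log2 difference -0.95, adjusted p = 0.0201). The log2 differences in the other nuclei were -0.68 for *Nrg1* (adjusted p = 0.0525), -0.73 for *Nrg2* and -1.36 for *Nrg3*, and the test of the difference between OPCs and other nuclei did not pass for any of the 3 genes (adjusted p = 0.814, 0.813 and 0.878). The *Nrg1* call was lost without nuclei of high doublet score (log2 difference -0.50, adjusted p = 0.215), with 0 UMIs of the excluded genes (log2 difference -0.53, adjusted p = 0.151), under 1% mitochondrial UMIs, with thinned sums and without V321L F2 (adjusted p = 0.0811, 0.0665 and 0.0613). The *Nrg2* call was lost in DESeq2 (adjusted p = 0.074), without V321L F1 (adjusted p = 0.0661) and under 5 other settings, with adjusted p up to 0.083, and that of *Nrg3* passed wherever it was fitted.

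The main receptor gene gave no call. *Erbb4*, which encodes a receptor for neuregulins, was at 4812, 2629.5, 2729 and 3124 CPM in WT and 2793, 2328, 3129 and 2839 CPM in V321L mice, with overlapping groups (log2 difference -0.23, standard error 0.203, adjusted p = 0.44). It fell in the other nuclei by 1.16 on the log2 scale (adjusted p = 6.77e-05), and the difference between these effects did not pass (0.75, adjusted p = 0.203). The *Erbb4* level was higher in OPCs than in the other nuclei by 2.46 on the log2 scale. *Erbb3* had 19 UMIs in all OPCs, *Nrg4* 7, *Egfr* 6 and *Erbb2* 1, too few to test. Of 11 genes for sheddases and gamma-secretase, which cut neuregulins, 2 could be tested and 0 passed in edgeR, with 0 at an unadjusted p under 0.05 and 0 called by DESeq2. In this list 1 gene rose when any single WT mouse, V321L F1 or the nuclei of high doublet score were left out. The same count was reached with no upper limits on UMIs and genes or no filter on low counts. A point mutation leaves the UMI count of *Nrg1* readable in both genotypes, so this count does not check the genotype labels.

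Genes of committed and differentiating precursors were higher in V321L OPCs. Of 14 genes of this list 9 could be tested, and 8 rose and 0 fell, with a median log2 difference of 2.37, beside 16.6% and 11.4% of all genes tested. *Neu4* was at 109, 8.14, 48.7 and 10.4 CPM in WT and 271, 193, 242 and 290.2 CPM in V321L mice (log2 difference 2.91, adjusted p = 1.99e-05). *Gpr17* was at 18.1, 32.6, 48.7 and 62.3 CPM in WT and 299, 230.3, 143 and 265 CPM in V321L mice (2.51, adjusted p = 1.99e-05). For both genes the lowest V321L mouse lay above the highest WT mouse. *Bmp4*, a secreted factor of early committed cells, had 1 UMI over all WT OPCs and 43 over all V321L OPCs, a pooled CPM higher by 26.9-fold (95% counting interval 4.58 to 1087). *Bmp4*, counted among the 8 rises, passed the filter on low counts through the V321L mice and had to differ, so its rise is a description. *Sirt2*, a deacetylase gene of the lineage, rose from 38.5 ± 19.6 to 198 ± 44.7 CPM (2.48, adjusted p = 5.6e-05), and *Bcas1*, expressed by premyelinating cells, rose from 143 ± 76.5 to 788 ± 84.0 CPM (2.27, adjusted p = 4.8e-07). *Enpp6* (2.37), the kinase gene *Fyn* (0.84) and *Itpr2*, a calcium release channel gene (0.77), also rose, and *Tcf7l2* was at 117 ± 43.8 and 152 ± 48.7 CPM (adjusted p = 0.373). *Neu4*, *Gpr17*, *Enpp6* and *Sirt2* were also too low in the WT mice to pass the filter on low counts without the V321L mice. Their rises and the count of 8 are therefore a description of members tested largely because they were high in V321L mice. The *Itpr2* call was lost under 13 of 24 settings, among them leaving out WT F2, WT M1, WT M2, V321L M1 or V321L M2 (adjusted p up to 0.206), and that of *Fyn* without WT M2 (adjusted p = 0.11) and under 3 other settings. Without nuclei of high doublet score 5 of 7 tested members rose, and under 1% mitochondrial UMIs 4 of 7. Among the other nuclei 4 of 10 tested members of the list rose and 2 fell, beside 36.6% and 28.9% of all genes tested there. In oligodendrocytes 4 of 9 rose, beside 22.6% of all genes tested there. Of the members named here only *Fyn* passed the test of the difference between OPCs and the other nuclei, given below.

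Myelin genes moved less uniformly. Of 7 tested members 4 rose and 1 fell (median 1.52). In the other nuclei 15 of 17 rose and 1 fell (median 1.89), beside 36.6% and 28.9% of all genes tested there. In oligodendrocytes 14 of 17 rose and 0 fell (median 1.75), beside 22.6% and 14.8%. Of 17 members 0 passed the test of the difference between OPCs and either class. *Mbp*, a major myelin protein gene, was at 36.2, 97.7, 97.5 and 20.8 CPM in WT and 335, 305, 428 and 744 CPM in V321L mice (2.83, adjusted p = 2.43e-06), without overlap. The gap junction gene *Gjc3* rose from 160.2 ± 88.0 to 426 ± 101 CPM (1.52) and *Fa2h*, which makes hydroxylated myelin lipids, from 21.7 ± 29.4 to 117 ± 74.2 CPM (1.86, groups overlapping). The *Fa2h* call was lost without WT F2 or V321L M2 (adjusted p = 0.0638 and 0.0577), without nuclei of high doublet score and with free RNA subtracted. The gene that fell was *St18*, from 363 ± 259 to 199.9 ± 96.6 CPM (-1.10, groups overlapping). The *St18* call was lost under 13 of 24 settings, among them DESeq2 (adjusted p = 0.161) and leaving out WT F2, V321L F1, V321L F2 or V321L M1 (adjusted p = 0.0552 to 0.197). The 8 oligodendrocyte markers together were at 636 ± 299 CPM in WT and 419 ± 73.4 CPM in V321L OPCs, with *St18* giving 220 of their 404 UMIs and *Ermn* at 0. In free RNA, taken from barcodes with at most 100 UMIs, *Mbp* was at 622 ± 125 CPM in WT and 2310.3 ± 856 CPM in V321L libraries, and its part in the OPC values was not tested.

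Lineage transcription factors were called in both directions. Of 13 tested members 5 rose and 3 fell (median 0.39), beside 16.6% and 11.4% of all genes tested. *Sox10* was at 18.1, 8.14, 0 and 31.1 CPM in WT and 299, 317, 362 and 454 CPM in V321L mice (4.27). *Olig1* was at 0, 32.6, 97.5 and 62.3 CPM in WT and 428, 299, 296 and 378 CPM in V321L mice (3.06, adjusted p = 7.29e-07). *Sox8* (2.96) and *Olig2* (2.43) rose without overlap too, and the counts of *Olig1*, *Olig2* and *Sox10* are those that gave the shares of nuclei with a UMI above. *Sox10* and *Olig2*, counted among the 5 rises, passed the filter on low counts through the V321L mice, so their rises are a description. *Sox6*, which holds precursors undifferentiated, was at 1837 ± 451 and 1581 ± 87.2 CPM (-0.17, adjusted p = 0.594). *Nfib* (-0.76), *Nfia* (-0.73) and *Tcf4* (-0.51) were the members that fell. The *Tcf4* call was lost under 18 of 24 settings, among them DESeq2 (adjusted p = 0.0596) and leaving out any mouse but WT F1 and WT M1, and that of *Nfib* without V321L F1 (adjusted p = 0.052) and under 5 other settings, so that 1 member fell without V321L F1. *Sox10* differed in the other nuclei by 3.90 and *Olig1* by 2.97, and the test of the difference did not pass for either (adjusted p = 0.997 and 0.965).

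Among surface and matrix genes of OPCs the calls were rises. Of 24 tested members 9 rose and 0 fell (median 0.60), beside 16.6% and 11.4% of all genes tested. In the other nuclei 7 of 25 rose and 13 fell, beside 36.6% and 28.9% of all genes tested there. *Cspg5*, a transmembrane proteoglycan gene, was at 488, 89.6, 195 and 239 CPM in WT and 1176, 1469, 1614 and 1501 CPM in V321L mice (2.60, adjusted p = 1.51e-07). The receptor gene *Gpr37l1* (2.87), *Matn4* (2.19) and *Bcan*, the matrix proteoglycan brevican (2.07), also rose with no overlap. *Cspg5*, *Gpr37l1*, *Matn4* and *Bcan* did not pass the test of the difference between OPCs and the other nuclei. The receptor phosphatase gene *Ptprz1* was at 2327 ± 685 and 2672 ± 369 CPM (adjusted p = 0.413), and *Pcdh15* was at 2714 ± 849 and 3083 ± 348 CPM (adjusted p = 0.414). Of this list 6 rose without WT F2, WT M2 or V321L F2 and 5 without upper limits on UMIs and genes, and 2 fell without WT M1.

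**Figure D3:**
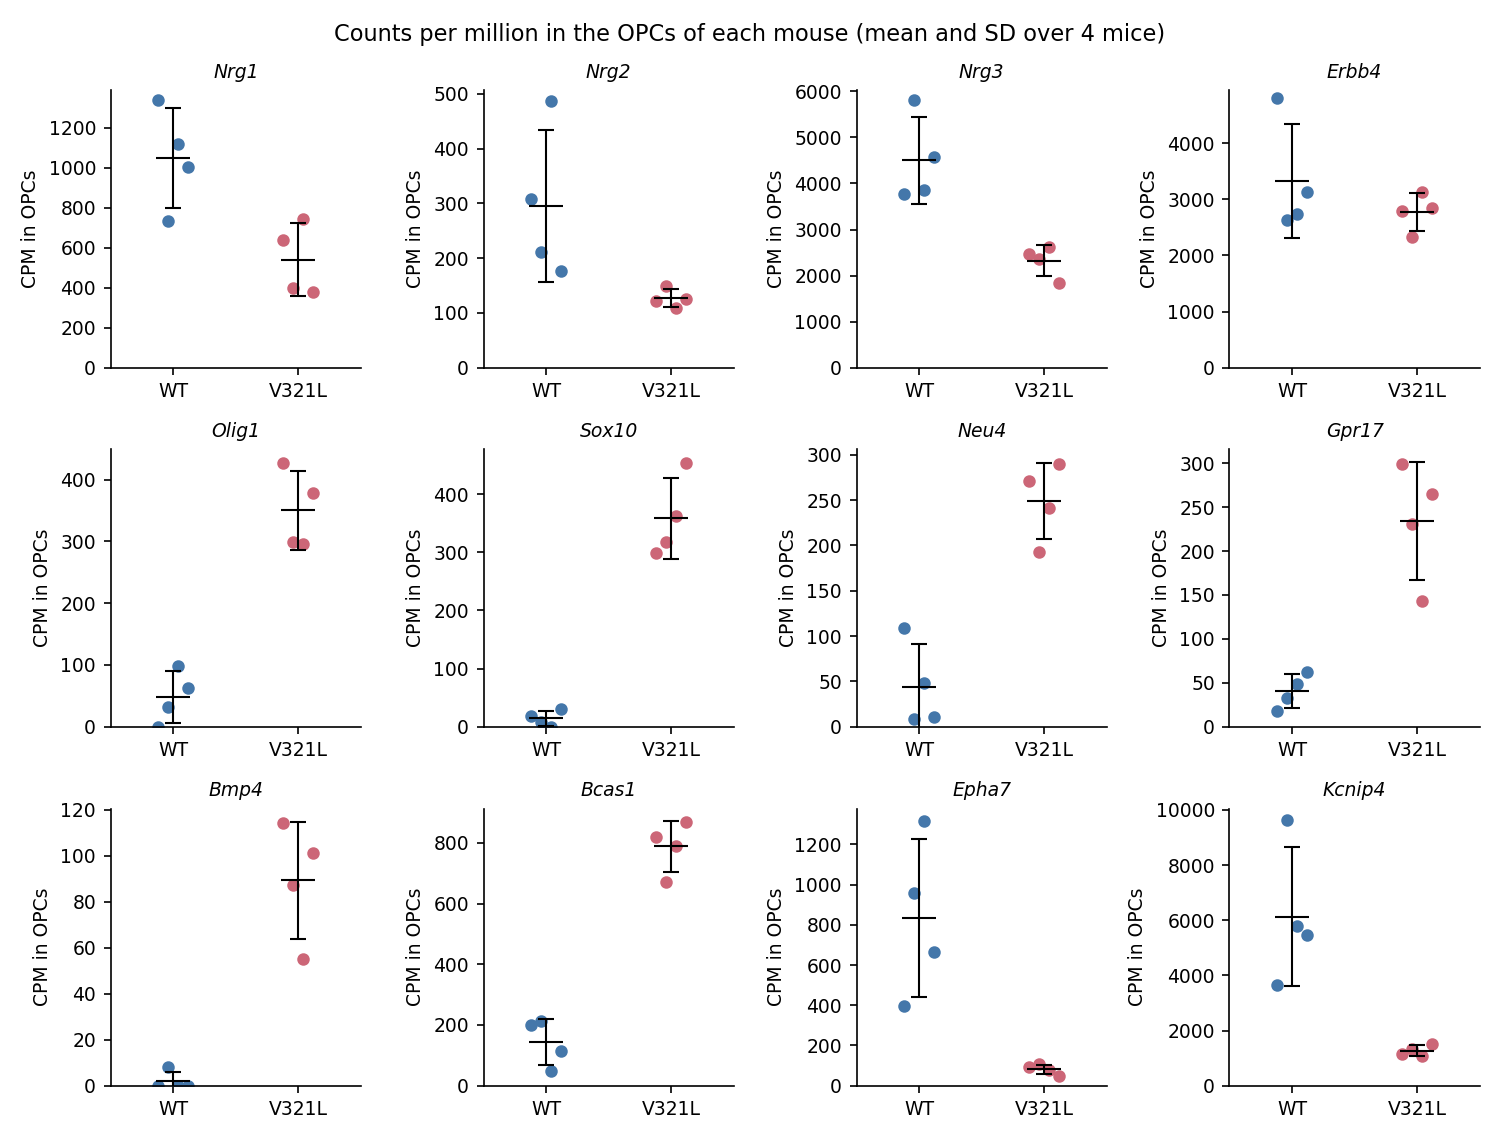
Each panel gives 1 gene, each point the CPM in the OPCs of 1 mouse, and bars the mean and SD over the 4 mice of a genotype, with y axes that start at 0 and differ between panels. *Nrg1*, *Nrg2* and *Nrg3* are lower in V321L mice, *Erbb4* overlaps, *Olig1*, *Sox10*, *Neu4*, *Gpr17*, *Bmp4* and *Bcas1* are higher in every V321L mouse, and *Epha7* and *Kcnip4* are lower in every V321L mouse.

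Signalling pathways that act on OPCs were compared beside the 16.6% of all tested genes that rose and the 11.4% that fell. Of 12 tested genes of PDGF and FGF signalling 1 rose, *Etv4* from 63.3 ± 61.3 to 169 ± 53.2 CPM (2.03, adjusted p = 0.00186, groups overlapping), and 3 fell, among them the inhibitor gene *Spred1* (-0.86) and *Fgf14* (-0.81), a regulator of sodium channels. The *Etv4* call was lost under 1% mitochondrial UMIs (adjusted p = 0.0835) and that of *Fgf14* with thinned sums (adjusted p = 0.108). Of 4 tested Notch pathway genes 0 passed in edgeR, with 1 at an unadjusted p under 0.05 and 0 called by DESeq2. Of 7 tested BMP and Wnt pathway genes 1 fell, *Apc* (-0.87), a negative regulator of Wnt signalling. The *Spred1* call was lost under 8 settings, among them DESeq2 (adjusted p = 0.0827) and leaving out WT F1, WT F2 or V321L F1 (adjusted p = 0.0508, 0.0616 and 0.0819), and with thinned sums it stood at 0.0511 on the log2 scale. The *Apc* call was lost under 6 settings, among them leaving out V321L F2 (adjusted p = 0.0773). Of 22 cell cycle genes 1 could be tested and did not pass in edgeR (unadjusted p under 0.05) or DESeq2, and of 19 cholesterol synthesis genes 0 could be tested.

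Genes for receptors, channels and adhesion, many of them shared with neurons, were called lower more often than higher. Of all genes tested 11.4% fell and 16.6% rose in OPCs, and 28.9% fell and 36.6% rose in the other nuclei. Of tested genes with a genomic span of 100 kb and over, 22.8% fell in OPCs and 70.6% in the other nuclei. The lists below were not compared with genes of like span. Of 26 tested glutamate and GABA receptor genes 13 fell and 2 rose (median -0.51), and in the other nuclei 22 of 27 fell and 2 rose. *Grin2b*, an NMDA receptor subunit gene, was at 379.9, 871, 585 and 550.1 CPM in WT and 171, 218, 98.8 and 114 CPM in V321L mice (-1.95, adjusted p = 7.51e-06), and *Gabra4* (-2.09), *Grin2a* (-1.77) and *Grm7* (-1.59) fell too. Of 22 tested channel genes 6 fell and 3 rose, the rises being near the share over all genes, and in the other nuclei 18 of 30 fell. *Kcnip4*, a potassium channel partner, fell from 6131 ± 2510.0 to 1269.7 ± 198 CPM (-2.27), with *Trpm3* (-2.28) and *Cacna1e* (-1.59), while *Kcnip3* rose (1.72). Of 40 tested adhesion and synapse organizer genes 14 fell and 2 rose, and in the other nuclei 31 of 41 fell. Of this list 8 fell in OPCs without V321L F2, 9 without V321L F1 and 8 under 1% mitochondrial UMIs, where 7 of 23 receptor genes fell. The ephrin receptor gene *Epha7* was at 398, 961, 1316 and 664 CPM in WT and 92.6, 106, 76.9 and 50.5 CPM in V321L mice (-3.17, adjusted p = 1.02e-08), *Plxna4* (-2.20) and *Tenm2* (-2.11) fell, and *Nlgn2*, an organizer of inhibitory synapses, rose (2.16). *Gabra4*, *Grin2b*, *Grin2a*, *Grm7*, *Trpm3*, *Kcnip4*, *Epha7*, *Plxna4* and *Tenm2* all had a lower level in OPCs than in the other nuclei.

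Markers of other cell types were measured beside these falls. The 4 granule cell markers *Prox1*, *Dock10*, *Calb1* and *Rfx3* together were at 1792 ± 418 CPM in WT and 658 ± 107 CPM in V321L OPCs, with *Rfx3* giving 435 of 823 UMIs. In free RNA they were at 1726 ± 144 CPM in WT and 415 ± 22.3 CPM in V321L libraries, and in the other nuclei at 3979.9 ± 432 and 2401 ± 244 CPM. These 4 markers together were thus lower in V321L mice in OPCs, in free RNA and in the other nuclei. The part of granule cell RNA in the falls of neuronal genes in OPCs was not tested. Of 15 tested granule cell genes 5 fell and 2 rose, the latter *Nrgn* (3.05) and *Meg3* (1.44). The list did not fall as a whole elsewhere. In the other nuclei 9 of 20 rose and 7 fell (median 0.19), beside 36.6% and 28.9% of all genes tested there. In oligodendrocytes 8 of 19 rose and 6 fell (median 0.25), beside 22.6% and 14.8%. The 7 astrocyte markers were at 4422 ± 759 and 4094 ± 308 CPM, mostly *Gpc5* with 2525 of 3187 UMIs, and of 6 tested astrocyte genes 3 rose, among them *Apoe* (3.76) and *Clu* (2.89). The 6 microglial markers were at 133 ± 77.2 and 175 ± 117 CPM (102 UMIs in all), and the 3 GABAergic markers at 37.5 ± 28.8 and 85.3 ± 54.3 CPM (*Gad1* 36 of 45 UMIs). The 5 vascular markers had 0 UMIs in WT OPCs, which allows up to 10.2 CPM, and 76.4 ± 59.5 CPM in V321L OPCs (*Vtn* 27 of 34 UMIs, *Pecam1* at 0). Of the microglial, GABAergic and vascular lists 2, 2 and 1 genes could be tested and 0 passed in edgeR, with 0, 1 and 0 at an unadjusted p under 0.05 and 0, 0 and 0 called by DESeq2.

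UMIs of ribosomal protein genes took a larger share of V321L OPCs. Summed over 86 genes for cytosolic ribosomal proteins the share of OPC UMIs was 0.0724%, 0.0594%, 0.117% and 0.0560% in WT and 1.63%, 0.867%, 0.818% and 1.5% in V321L mice, with no overlap. Of these genes 62 passed the filter on low counts and 62 rose, but 43 of them had 3 or fewer UMIs over all WT OPCs, so that they passed through the V321L mice and had to differ, and the count is given as a description. *Rpsa* had 0 UMIs over all WT OPCs and 99 over all V321L OPCs, at least 20.7-fold higher against a floor of 3 UMIs over the group, *Rps24* was at least 19.6-fold higher, and *Chchd2*, a mitochondrial protein gene outside the list, at least 20.2-fold higher. *Ubb*, a ubiquitin gene, had 1 UMI in WT and 239 in V321L OPCs, a CPM higher by 149.6-fold (95% counting interval 26.6 to 5933). Ribosomal protein genes have many near-identical processed pseudogenes, so single members are uncertain. Of 34 tested nuclear genes of oxidative phosphorylation 29 rose and 0 fell, 16 of the 34 with 3 or fewer UMIs over all WT OPCs, and the summed share of the 76 genes of the list was 0.124% ± 0.0282 in WT and 0.764% ± 0.238 in V321L mice. Of 10 tested mitochondrially encoded genes 7 rose and 0 fell, with the cytochrome oxidase gene *mt-Co3* at 90.5, 204, 389.8 and 31.1 CPM in WT and 2629, 1525, 1899.6 and 2687 CPM in V321L mice. Of 6 tested immediate early and heat shock genes 4 rose, *Jun* (2.21), *Hsp90ab1* (2.01), *Hspa8* (1.57) and *Hsp90aa1* (1.49). The *Jun* call was lost without WT F2, WT M2 or V321L M1 (adjusted p = 0.106, 0.114 and 0.0559) and with the replicate number as a block (adjusted p = 0.0522). In the other nuclei 83 of 83 ribosomal and 74 of 76 oxidative phosphorylation genes rose, and in oligodendrocytes 78 of 78 and 63 of 69.

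The largest rises and falls were ranked over called genes that averaged 100 CPM or more across the 8 mice and did not overlap between the genotypes. The 10 rises of largest fitted size, in no order here since the fitted size of a gene near 0 follows the prior count, were those of *Rpsa*, *Chchd2*, *Rps24*, *Ubb*, *Tmsb4x*, *Fau*, *Rplp1*, *Pcsk1n*, *Cox8a* and *Fth1*, of which 4 encode ribosomal proteins or their precursor. Of the 10 genes 8 had 3 or fewer UMIs over all WT OPCs, so that they passed the filter on low counts through the V321L mice and had to differ. *Fth1* and *Pcsk1n* were also too low in the WT mice to pass it without the V321L mice. *Fau* was higher by 68.8-fold (95% counting interval 12.1 to 2744), *Rplp1* by 60.1-fold (95% counting interval 16.4 to 499.7) and *Cox8a*, a cytochrome oxidase subunit gene, by 38.8-fold (95% counting interval 10.5 to 324). *Tmsb4x*, the actin binder thymosin beta 4, had 3 UMIs over all WT and 310 over all V321L OPCs, higher by 64.7-fold (95% counting interval 21.9 to 315). *Fth1*, a ferritin subunit gene, was at 36.2, 32.6, 0 and 0 CPM in WT and 969, 486, 384 and 946 CPM in V321L mice (5.01), and *Pcsk1n*, a neuroendocrine protease inhibitor gene, at 54.3, 8.14, 0 and 31.1 CPM in WT and 884, 909, 648 and 1211 CPM in V321L mice (5.17). Among the 10 largest falls was *Gm42418*, a locus known to collect reads of ribosomal RNA, at 7472, 5194, 14034 and 5480.1 CPM in WT and 485, 230.3, 296 and 467 CPM in V321L mice (-4.36). *Lingo2*, a synaptic adhesion gene (-3.52), the cadherin gene *Cdh9* (-3.52), *Jph1* (-3.26), the transcription factor gene *Glis3* (-3.21), *Epha7* (-3.17), the synaptic vesicle gene *Synpr* (-2.93), *Gm26917* (-2.87) and the integrin gene *Itga8* (-2.86) were among the others. *Cdh9* was at 163, 569.9, 292 and 187 CPM in WT and 42.8, 31.1, 0 and 25.2 CPM in V321L mice.

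Free RNA and gene length moved with these lists. Ribosomal protein genes made up 1.07% ± 0.284 of free RNA in WT and 11% ± 0.670 in V321L libraries, and mitochondrially encoded genes 8.29% ± 1.61 and 16.3% ± 3.36. With free RNA subtracted from the OPC counts, at an estimated 33.6% to 61.2% of their UMIs, 0 ribosomal genes could be tested and 330 genes differed, 217 higher and 113 lower, among them 6 of 8 tested members of the differentiation list, all higher. Of the lists with falls, 4 of 20 glutamate and GABA receptor genes, 8 of 39 adhesion and synapse organizer genes, 0 of 13 lineage transcription factors (where 5 of 13 rose) and 2 of 4 neuregulin and ErbB genes then fell. Of the other lists with rises, 2 of 5 myelin genes and 6 of 21 surface and matrix genes then rose, and no oxidative phosphorylation, mitochondrially encoded or immediate early and heat shock gene could be tested. The estimate of free RNA rests on 13 to 81 UMIs of microglial and vascular genes per mouse. Across the 3623 genes with a known genomic span, Spearman's rho between span and log2 difference was -0.60 in OPCs, a description across genes of the same 8 libraries. Of 273 genes under 10 kb 85.7% were higher in V321L OPCs, 117 of the genes having 3 or fewer UMIs over all WT OPCs, and of 1485 genes of 100 kb and over 22.8% were lower (median -0.31). In the other nuclei 70.6% of 2346 genes of 100 kb and over were lower (median -0.73).

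Noncoding RNAs kept in the nucleus were called in both directions. Of 10 tested members 2 rose and 3 fell, beside 16.6% and 11.4% of all genes tested, so that the rises are near the share over all genes. *Malat1* rose from 8422 ± 848 to 32183 ± 3964 CPM (1.97), *Gm42418* fell from 8045 ± 4119 to 369.5 ± 126 CPM (-4.36) and *Snhg14* fell (-1.84). In free RNA the list made up 12% ± 2.56 of UMIs in WT and 0.954% ± 0.117 in V321L libraries, whereas in OPCs it made up 1.99% ± 0.331 and 3.63% ± 0.429. The sums were led by different members, since *Gm42418* alone was at 112742 ± 24952 CPM in WT and 2676 ± 656 CPM in V321L free RNA and fell in OPCs as well, while *Malat1* made up most of the list in OPCs of V321L mice.

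**Figure D4:**
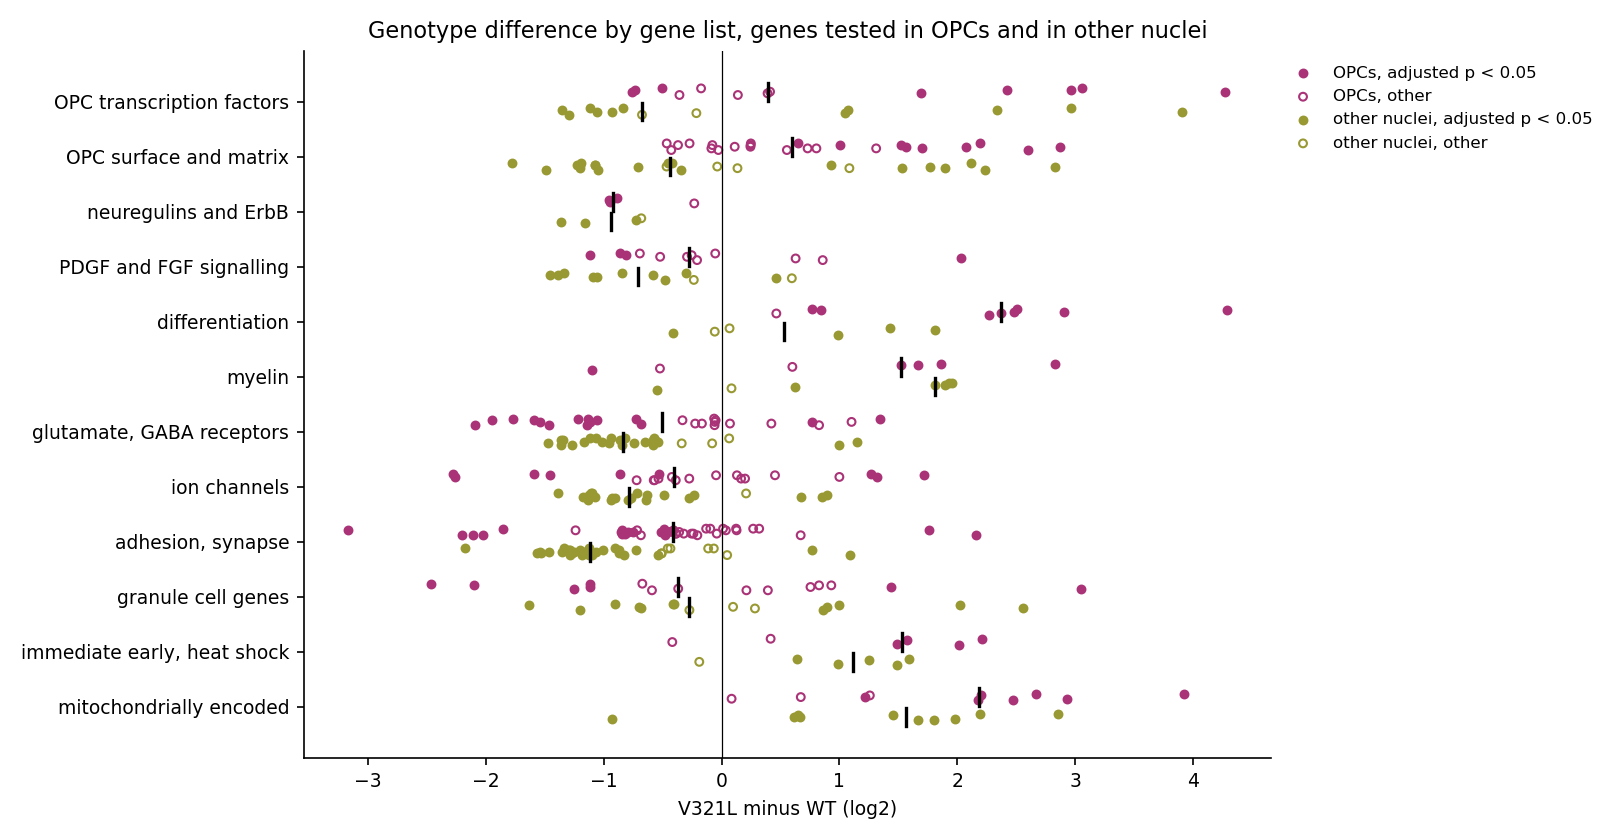
Each point is 1 gene tested both in OPCs and in the other nuclei, placed at its log2 difference V321L minus WT in each class and filled where the adjusted p was under 0.05, and black ticks are medians over the genes of a list. Fitted values of genes with 3 or fewer UMIs in a genotype depend on the prior count. In OPCs the points of the differentiation list lie mostly above 0 and those of the receptor and adhesion lists mostly below 0.

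Depth and free RNA move with genotype in all nuclei of a library, and the difference between the genotype effects was tested directly. Depth and free RNA can weigh differently on OPCs and on the other nuclei, so this test does not remove them. Their part in the calls below was not tested. Of 13540 genes outside the rule, the genotype difference was more positive in OPCs than in the other nuclei for 40 (0.295%) and more negative for 43 (0.318%) at an adjusted p under 0.05. This split depends on scaling and on the nuclei kept, with 28 and 108 genes on library sizes alone, 35 and 84 on RLE size factors, 16 and 48 in DESeq2, and 131 and 5 without nuclei of high doublet score, while the 83 genes kept their sign under these settings. The median over all genes tested was 0.19 (log2), and it shifted by -0.13 on RLE size factors, -0.22 on library sizes alone and -0.32 in DESeq2. Other settings moved the median upwards, by up to 0.41 without nuclei of high doublet score. Without V321L F2 there were 33 genes in all and without WT F2 40. Of the 40 genes more positive in OPCs 38 fell in the other nuclei, 13 rose in OPCs and 1 fell in OPCs, and 36 had a higher mean level in OPCs than in the other nuclei. Of the 43 genes more negative in OPCs 34 fell in OPCs and 42 had a lower mean level in OPCs.

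Several genes gave no call in V321L OPCs while falling in the other nuclei. *Luzp2*, whose upstream sequence is shown above, was at 2388, 1588, 1072 and 1505 CPM in WT and 1382, 1556, 1724 and 1791 CPM in V321L mice (-0.03), and fell by 1.49 in the other nuclei (test of the difference 1.38, adjusted p = 0.000194). *Tnr* was at 2321 ± 521 and 2713 ± 295 CPM in OPCs (0.25) and fell by 1.08 in the other nuclei (test of the difference 1.13, adjusted p = 0.00439). *Nxph1*, a neurexin ligand gene (1.33, adjusted p = 0.000265), and the adhesion gene *Opcml* (0.97, adjusted p = 0.0227) had the same pattern, with levels in OPCs that differed from those in the other nuclei by 2.83 for *Luzp2*, 1.98 for *Tnr* and 4.20 for *Nxph1* but only 0.27 for *Opcml*. *Megf11* rose in OPCs from 262 ± 109 to 501 ± 111 CPM and fell by 1.20 in the other nuclei (1.95, adjusted p = 1.21e-05), and *Fyn*, which acts in oligodendrocyte differentiation, rose by 0.84 in OPCs and fell by 0.41 in the other nuclei (1.03, adjusted p = 0.0466). The transcript *9630013A20Rik* was at 36.2, 65.1, 48.7 and 31.1 CPM in WT and 249, 299, 209 and 139 CPM in V321L mice in OPCs (2.27), without overlap, against a fall of 1.46 in the other nuclei (3.50, adjusted p = 5.6e-11). *Snx22* (3.67), *Cntnap4* (2.63), *Angptl1* (2.62) and *Msrb3* (2.42) were the others with the largest positive differences. The test of the difference for *Fyn* was lost under 11 of 20 settings, among them library sizes alone (adjusted p = 0.143) and leaving out WT M2, V321L F1, V321L F2 or V321L M1, and that of *Opcml* under 5, among them leaving out WT M2, V321L F2 or V321L M1. It was lost under 2 settings for *Luzp2* and *Tnr* and 1 for *Nxph1*, among them no upper limits on UMIs and genes each time, under 8 for *Angptl1*, 5 for *Cntnap4* and 4 for *Msrb3*, and the *Megf11* rise in OPCs was lost without WT F2 (adjusted p = 0.11).

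The more negative differences were led by *Zfp831*, *Cacng3*, *Rtn4r* (-3.81), *Ndst4* (-3.65, adjusted p = 1.27e-05) and *F730043M19Rik*. Most of these rest on few UMIs. *Zfp831* and *Cacng3* each had 14 UMIs over all WT OPCs and 1 over all V321L OPCs, a pooled CPM lower in V321L OPCs by 22.4-fold (95% counting interval 3.4 to 946), *F730043M19Rik* had 13 and 3, and *Rtn4r* had 15 in all. *Ndst4*, an enzyme gene of heparan sulphate synthesis, was at 127, 187, 195 and 72.7 CPM in WT and 0, 0, 32.9 and 12.6 CPM in V321L mice. *Lingo2* was at 1013, 2174, 1706 and 976 CPM in WT and 114, 118, 32.9 and 252 CPM in V321L mice (-3.52), against -1.12 in the other nuclei (test of the difference -2.50, adjusted p = 3.36e-11). *Epha7* fell by 3.17 in OPCs and 1.30 in the other nuclei (test of the difference -2.06, adjusted p = 5.97e-06), and *Grin2b* by 1.95 and 0.58 (test of the difference -1.56, adjusted p = 0.00081). Without nuclei of high doublet score the tests of *Epha7*, *Grin2b* and *Ndst4* were lost (adjusted p = 0.0875, 0.232 and 0.489), and *Zfp831*, *Cacng3*, *Rtn4r* and *F730043M19Rik* were lost under 11, 8, 8 and 7 of 19 settings. In all *Grin2b* was lost under 5 of 20 settings, among them leaving out WT F2 (adjusted p = 0.0745), and *Epha7* under 3, among them no upper limits on UMIs and genes (adjusted p = 0.699).

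Oligodendrocytes, the progeny of OPCs, gave another reference. Of 5889 genes the genotype difference was more positive in OPCs for 20 (0.34%) and more negative for 26 (0.442%). Of the 40 genes above 6 were also called here, and of the 43 genes 16 were. *9630013A20Rik* (2.40, adjusted p = 0.00398), *Tnr* (1.28, adjusted p = 0.0126) and *Opcml* (1.15, adjusted p = 0.00994) were more positive in OPCs than in oligodendrocytes too. *Luzp2* (0.54), *Megf11* (1.58), *Fyn* (0.78) and *Nxph1* (-2.11, in the opposite direction) did not pass here (adjusted p = 0.736, 0.755, 0.526 and 0.59). The WT mice gave only 37, 55, 10 and 65 oligodendrocytes, so this comparison is the less precise, with 26, 29 and 30 genes in all without V321L F2, V321L M1 or WT M1 and 77 without V321L M2. There were 2 without nuclei of high doublet score, 4 under 1% mitochondrial UMIs and 11 without upper limits on UMIs and genes.

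**Figure D5:**
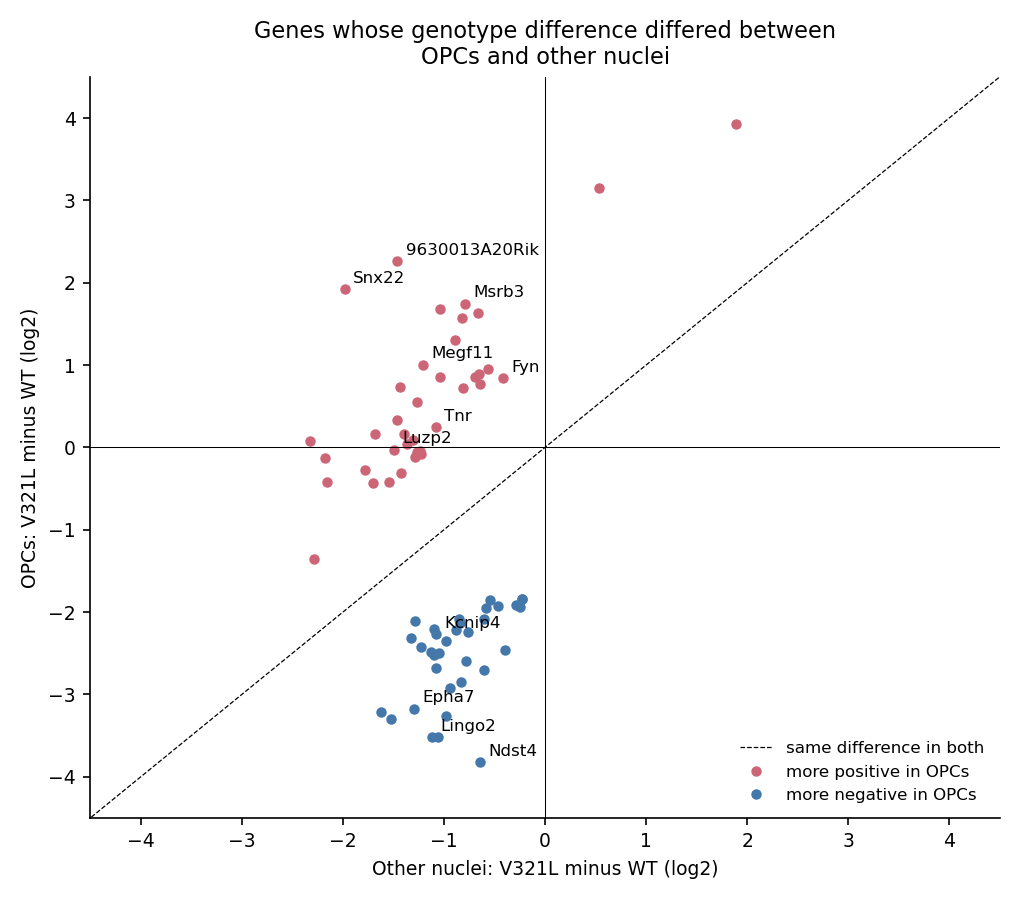
Each point is 1 of the 72 genes that passed the test of the difference and could be fitted in both classes alone, with its log2 difference V321L minus WT in the other nuclei on the x axis and in OPCs on the y axis. Points above the diagonal are more positive in OPCs than in the other nuclei, with *9630013A20Rik* at -1.46 and 2.27, and points below it are more negative in OPCs, with *Lingo2* at -1.12 and -3.52.

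Promoter accessibility in OPCs was compared between the genotypes last. Of 8619 promoters with enough counts 0 (0%) were higher and 0 (0%) lower in V321L OPCs by edgeR, 335 had an unadjusted p under 0.05, and DESeq2 called 1 lower. The promoter of *Olig1* differed by 0.53 (standard error 0.523), that of *Luzp2* by -0.04 (standard error 0.426) and that of *Nrg1* by -0.57 (standard error 0.364), each on the log2 scale. The ATAC counts summed over the OPCs of a mouse lay between 65910 and 460646. Larger differences gave no call at this depth either, such as -1.26 for *Sntg1* (standard error 0.617) and -0.95 for *Sox11* (standard error 0.466). The lack of calls therefore does not exclude differences of this size.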

How the data were processed

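RNA and ATAC of the same nuclei were measured with a 10x Multiome kit in 8 mice. The authors deposited, per library, a matrix of raw UMI counts per gene and of ATAC counts per peak for all barcodes, made with cellranger-arc 2.0.2 per the file headers, with peaks called in each library. The labels name mm10, Cell Ranger, Seurat and Signac without versions, and no deposited annotation of cell types was used. Nuclei with 501 to 8916 UMIs, 251 to 3307 genes, under 2.787% mitochondrial UMIs and at least 500 ATAC counts were kept, and no doublet caller was applied except as an alternative (a score from simulated doublets). OPCs and oligodendrocytes were then chosen by marker UMIs. An oligodendrocyte held at least 3 UMIs over *Mog*, *Mag*, *Mobp*, *Cldn11*, *Ermn*, *Opalin*, *Ugt8a* and *St18* with at least 1 of the first 3, and at most 1 over *Gad2*, *Pdgfra*, *Gja1*, *Inpp5d* and *Prox1*. The mouse was the unit.

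Counts were summed over the nuclei of a class in each mouse and tested with edgeR 4.0.16 (quasi-likelihood test, TMM, filterByExpr with a minimum count of 5, Benjamini-Hochberg over all genes tested, called at an adjusted p under 0.05) in R 4.3.3. Every adjusted p in the text is from this test unless DESeq2 is named, and log2 differences are V321L minus WT unless said otherwise. Comparisons between classes had the mouse as a block. The 12 genes of the rule stayed in the fits and out of the counts of calls. Shares were compared by an exact permutation test over 70 assignments. CPM are computed here from the deposited counts, and their means and SDs are over mice. Promoters were tested for genes with a peak in all 8 libraries, and neighbouring genes can share a peak. The alternatives were other marker minimums, ATAC, mitochondrial, UMI and doublet limits, thinned counts, RLE factors, library sizes alone, other filters, DESeq2 1.42.0, sex, a replicate block, free RNA subtraction and leaving out each mouse. Scripts were tested on simulated data.

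The members and the 24 gene lists were chosen with earlier results of these data known. Named genes were the rule genes, up to 4 called members of a list by size, neuregulin and ErbB genes, and the largest differences of each comparison. Other genes were named after their values were seen. Some genes that the rule names are not reported here.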

Additional observations from a re-analysis of the deposited data

Results flagged for a closer look

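Within a genotype 3 of 64 groups of 4 mice, over the named genes and shares, held a mouse far from the other 3, and chance gives about 1 in 20. *Egfr* was at 31.1 CPM in WT M2, *Erbb2* at 6.22 CPM in V321L F2 and *Bmp4* at 8.14 CPM in WT F2, with 0 UMIs in the other 3 mice of the genotype each time. With the other 3 at 0 any value above 0 is set apart in this way, and those of *Erbb2* and *Bmp4* are 1 UMI each, so these values do not mark a mouse as standing apart.

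The genotype difference in OPCs differed from that in the other nuclei for 83 genes and from that in oligodendrocytes for 46 genes, by the interaction term in edgeR at an adjusted p under 0.05. Against the other nuclei the difference of differences (log2) was 3.67 for *Snx22*, 3.50 for *9630013A20Rik*, 2.63 for *Cntnap4*, 2.62 for *Angptl1*, 2.42 for *Msrb3*, 1.03 for *Fyn*, 1.13 for *Tnr*, 1.95 for *Megf11*, 1.38 for *Luzp2*, 1.33 for *Nxph1* and 0.97 for *Opcml*. In the negative direction it was -4.34 for *Zfp831*, -4.23 for *Cacng3*, -3.81 for *Rtn4r*, -3.65 for *Ndst4* and -3.48 for *F730043M19Rik*. Those of *Zfp831*, *Cacng3* and *F730043M19Rik* rest on 3 or fewer UMIs in V321L OPCs and depend on the prior count of the fit.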

How the results depend on the processing

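The ratio of the OPC shares (V321L to WT) kept its direction under the alternatives that were run, with 1.5 among nuclei without granule cell UMIs, 1.72 at 500 UMIs per nucleus and 1.59 for nuclei under 1% mitochondrial UMIs, none of which passed 0.05, and lay from 1.63 (without WT M1) to 2.14 (without WT M2) with 1 mouse left out. The ratio of the differentiation shares lay from 2.33 (without WT M1) to 4.02 (without WT F1) with 1 mouse left out and was 4.55 at 500 UMIs per nucleus, and with 1 UMI asked for, added after seeing the data, 1.84 at full depth and 1.92 at 500 UMIs. With the replicate number as a replicate block the ratios were 1.86 and 2.91, where an exact sign-flip test cannot give a p under 0.125. Same-numbered mice did not deviate together (correlations -0.05, 0.03, -0.03 and -0.02), so the numbers were taken as names, and the block gave 551 genes higher and 359 lower by genotype.

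Against 1034 genes that differed by genotype in OPCs there were 443 under 1% mitochondrial UMIs, 570 with a minimum count of 10, 127 with each mouse thinned to 20521 UMIs and 330 with free RNA subtracted. Fewer genes could be tested under each of these settings (2506, 1906, 820 and 2462, against 3687), and any further cause of the changes was not tested. With no filter on low counts 1520 of 16514 genes differed. The fit of RNA between OPCs and other nuclei, no test since RNA chose the nuclei, called 1039 genes in WT mice alone, against 3156. The 83 genes whose genotype difference differed from that in the other nuclei became 231 with a marker minimum of 2 UMIs, 136 without high doublet scores, 13 without upper limits on UMIs and genes, 20 under 1% mitochondrial UMIs, 136 on library sizes, 179 with a minimum count of 10, and 33 (without V321L F2) to 118 (without WT M1) with 1 mouse left out. The 46 against oligodendrocytes became 2 without high doublet scores, 24 with at least 1000 ATAC counts, 11 without upper limits, 4 under 1% mitochondrial UMIs, and 26 (without V321L F2) to 77 (without V321L M2) with 1 mouse left out. The number of promoters that differ in accessibility between OPCs and other nuclei, 915, became 587 under 1% mitochondrial UMIs, 144 in WT and 447 in V321L mice alone, 3753 with peaks within 25 kb, and 577 (without V321L M1) to 871 (without WT F2 or V321L M2) with 1 mouse left out. By genotype 1 promoter was called by DESeq2 and 1 within 25 kb, against 0. Of single genes *Spred1* turned to 0.0511 (log2) with thinned sums and *Erbb4* to 0.0205 under 1% mitochondrial UMIs. Values near 0 that were not called turned for *Luzp2* (0.00580, 0.0187, 0.0505, 0.0510, 0.0515, 0.0676, 0.0845, 0.0979, 0.139 and 0.181; from -0.205 with 1 mouse left out), *Opcml* (0.0423, 0.0606, 0.0719, 0.0842 and 0.134; from -0.297 with 1 mouse left out), *Sox6* (0.217) and *Tnr* (-0.0332). The call of *Grin2a* was lost with free RNA subtracted (adjusted p = 0.117), those of *Bcan* and *Hsp90aa1* with thinned sums (adjusted p = 0.0695 and 0.137) and that of *Hspa8* under 1% mitochondrial UMIs (adjusted p = 0.0634). Without high doublet scores the calls of *Nrg1* (adjusted p = 0.215), *Apc* (0.0514), *Fa2h* (0.0556), *Itpr2* (0.0696), *Megf11* (0.0847), *Msrb3* (0.061), *St18* (0.585) and *Tcf4* (0.219) were lost, and those against other nuclei of *Zfp831* (adjusted p = 0.0667), *Cacng3* (0.162), *Rtn4r* (0.115), *Ndst4* (0.489), *F730043M19Rik* (0.855), *Epha7* (0.0875) and *Grin2b* (0.232). Over the settings that gave a value, 2129 of 2253 values of the named genotype genes kept direction and side of the threshold, as did 290 of 371 for the 19 genes named against other nuclei, of which DESeq2 gave 10 an adjusted p. Of those 19, 8 were lost without V321L F2 and 14 without upper limits on UMIs and genes.

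OPC sums of 20521 to 160646 UMIs per mouse limit the genotype test to 3687 genes, and WT M1, with 18 OPCs, is the shallowest. Intervals and floors cover counting error only, and p-values measure the spread between 4 mice per genotype.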
